A study of Rattus norvegicus with 4 samples.

Results

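Solute carriers are membrane proteins that move amino acids, sugars, vitamins, metals, nucleotides and ions across cell and organelle membranes. The genes described here are the solute carriers (Slc genes) on the array outside the groups best known from tubular salt, glucose, phosphate, acid-base and drug transport: all Slc17, Slc20, Slc22 and Slc34 genes and 12 single genes were left out by name. They were found by gene symbol in the platform annotation, without use of any signal, and came to 239 probe sets of 193 genes in 44 families, out of 10411 named genes on the array. By their symbols the 193 include Slc7a6os and Slc4a1ap, which are named after a carrier gene and are not carriers themselves.

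Kidney RNA came from male rats aged 9 weeks of 2 inbred strains, the spontaneously hypertensive rat (SHR), which has inherited high blood pressure, and Brown Norway (BN), which does not. Rats of each strain had been exposed before birth to nicotine, or to saline as the control. Each of the 4 groups gave 1 RNA pool and 1 Affymetrix RAE-230A array: 13 animals were pooled for SHR nicotine and 12 each for SHR saline, BN nicotine and BN saline. A comparison of nicotine with saline within a strain therefore sets 1 pool against 1 pool, and a comparison of strains sets 2 pools against 2, with pools and not animals as the units of error.

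In the kidney, carriers work in polarised pairs: one on the brush border takes a solute up from the filtrate, usually with sodium or protons, and another on the basolateral side passes it to the blood. Some amino acid carriers are 2-part proteins, in which a heavy chain such as Slc3a1 or Slc3a2 brings a light chain of the Slc7 family to the membrane. The Slc25 family serves the inner membrane of the mitochondrion, Slc35 carries nucleotide sugars into the Golgi apparatus, and Slc30 and Slc39 move zinc out of and into the cytosol.

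In the strain comparison below, 5 members passed the test in every alternative analysis in which they were tested, apart from the one without a filter on low signals; Slc1a5, one of the 5, was not tested with the floor at the 60th percentile. The windows just before the start of 3 of them, those with a single entry in RefSeq's promoter table, are shown to give the sequence in front of the genes with the steadiest strain difference. Each window holds the 250 bases before the start, on build GRCr8 (the BN reference rat), 5′ to 3′ on the strand of the gene, with motif matches in capitals.
Slc23a3 (chr9:84080038-84080287, minus strand): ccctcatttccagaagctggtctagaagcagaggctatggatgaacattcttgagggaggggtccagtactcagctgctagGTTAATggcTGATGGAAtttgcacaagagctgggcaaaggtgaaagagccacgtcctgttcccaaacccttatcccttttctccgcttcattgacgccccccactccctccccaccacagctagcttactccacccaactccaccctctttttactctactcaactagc
Slc6a20a (chr8:132199901-132200150, minus strand): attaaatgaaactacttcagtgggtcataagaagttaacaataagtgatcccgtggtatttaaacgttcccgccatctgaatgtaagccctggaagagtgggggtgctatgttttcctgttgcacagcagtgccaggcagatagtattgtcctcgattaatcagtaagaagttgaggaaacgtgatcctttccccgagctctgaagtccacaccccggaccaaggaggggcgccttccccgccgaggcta
Slc26a1 (chr14:1184721-1184970, plus strand): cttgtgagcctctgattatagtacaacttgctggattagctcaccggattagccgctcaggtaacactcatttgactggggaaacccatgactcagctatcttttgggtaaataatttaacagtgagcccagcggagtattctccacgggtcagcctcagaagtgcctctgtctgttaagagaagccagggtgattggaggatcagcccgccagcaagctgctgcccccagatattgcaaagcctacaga

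On both strands the windows were searched for the HNF1 core site GTTAAT, the HNF4 site CAAAGTCCA, the TATA box TATAAA, the GC box GGGCGG, the amino acid response element TGATGNAA (where N is any base) and the E-box CACGTG. The Slc23a3 window held GTTAAT, whose first base lies 169 bases before the start, and TGATGNAA at 160 bases, with no overlap between them. No letters of the 6 motifs were found in the Slc6a20a and Slc26a1 windows. GTTAAT was present in 6.45% of all 33469 windows of this length, in 4.27% of those of genes named on the array and in 5.14% of those of the members. TGATGNAA was present in 3.4%, 1.97% and 2.86% of the same windows. The GC box was found in 56% of the windows of members and in 55% of those of genes named on the array.

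Signals are MAS5 intensities on a linear scale, set by the authors to a common trimmed mean of 150.0 on each array. Values below 44.5, the 40th percentile of all signals, were raised to that floor, and a gene was called measured where a signal reached 89.0, 2 times the floor. Of the 193 members, 114 were measured on at least 1 array and 97 reached that limit on all 4. On its brightest probe set none of the 114 had a value below the floor, so no fold given for these is a bound. The other 79 stayed under the limit on all 4 arrays, 49 of them below the floor throughout, so that differences in these could not be read. Families with no measured member were Slc10 (bile acids), Slc18 (amines), Slc24, Slc32, Slc36 and Slc46. Signals of different genes depend on their probes and are not set against each other.

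All 6 markers of the proximal tubule were measured, as were Umod of the thick ascending limb and Aqp2 of the collecting duct. The markers themselves differed between strains. Of the 6 proximal tubule markers, 4 passed the strain test, as did 17.6% of all genes tested. Lrp2, Slc34a1 and Miox were higher and Cubn lower in SHR. The summed signal of the 6 was 22502.4 to 22821.1 in the SHR pools and 19769.4 to 19981.2 in the BN pools. All 3 tested immune cell markers (Cd74, Lyz2, Fcer1g) were higher in SHR, while Laptm5, measured but not tested, had a log2 ratio of -0.14 and Ptprc, which defines leukocytes, was below the floor on every array. The summed signal of the 5 immune markers was 3285.3 to 3889.8 in SHR and 2508.2 to 2765.8 in BN. For beta-actin, the signal of the 3' probe set over the 5' one, which depends on how intact the RNA is, was 1.34 and 1.39 in SHR, below the BN values of 1.49 and 1.54; for Gapdh it was 1.11 and 1.0 in SHR, beside 1.09 and 1.07 for BN. Other called markers higher in SHR were Umod (log2 ratio 0.37), Slc4a1 of intercalated cells (0.42) and Kdr of endothelium (0.32). Lower in SHR were Slc12a1 of the thick ascending limb (-0.76), Slc12a3 (-0.32), Aqp2 (-0.41), Aqp3 (-0.3), the podocyte gene Podxl (-0.55) and Lpl (-0.63). Tested markers of the same cell types had the opposite sign without passing. These were Slc26a4 of intercalated cells (-0.33), Pecam1 of endothelium (-0.19), Scnn1g of the collecting duct (0.42) and Calb1 of the distal convoluted tubule (0.03). The called markers thus do not stand for their cell types as a whole. The part of these differences in the carrier results was not tested, and in whole tissue fewer cells of a type and less RNA per cell cannot be told apart.

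Between strains, 24 carrier genes differed, 15 lower and 9 higher in SHR. By size of ratio, the lower group was led by Slc23a3, Slc1a5, Slc66a2 and Slc6a20a, and the higher group by Slc2a13, Slc52a2 and Slc25a12. Those higher genes lost their call in most alternative analyses: Slc2a13 was called in 4 of 12, Slc52a2 in 5 of 11 and Slc25a12 in 5 of 12. The BN means of Slc2a13 and Slc52a2, 73.7 and 57.3, lay under the limit for a measured gene. The steadiest higher gene was Slc26a1, 1.37-fold higher in SHR and called in 12 of 13. Most differences were small: 8 of the 24 reached 1.5-fold and only Slc23a3 reached 2-fold. The test was limma with strain and treatment as factors over the 4 arrays, and Benjamini-Hochberg adjustment over all 5444 genes tested, at 0.05. It could be applied to 111 members, of which 24, or 21.6%, passed, against 17.6% of all genes tested, and 38 had an unadjusted p under 0.05 (34.2%, against 30.3% of all genes). That share lies near the background, so the carriers as a group are not set apart by it. Lower in SHR were 13.5% of the tested members against 9.33% of all genes, and higher 8.11% against 8.28%. The median log2 ratio was 0.02 over the members and 0.0 over all genes, with an SD of 0.32 and 0.33.

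**Figure D1:**
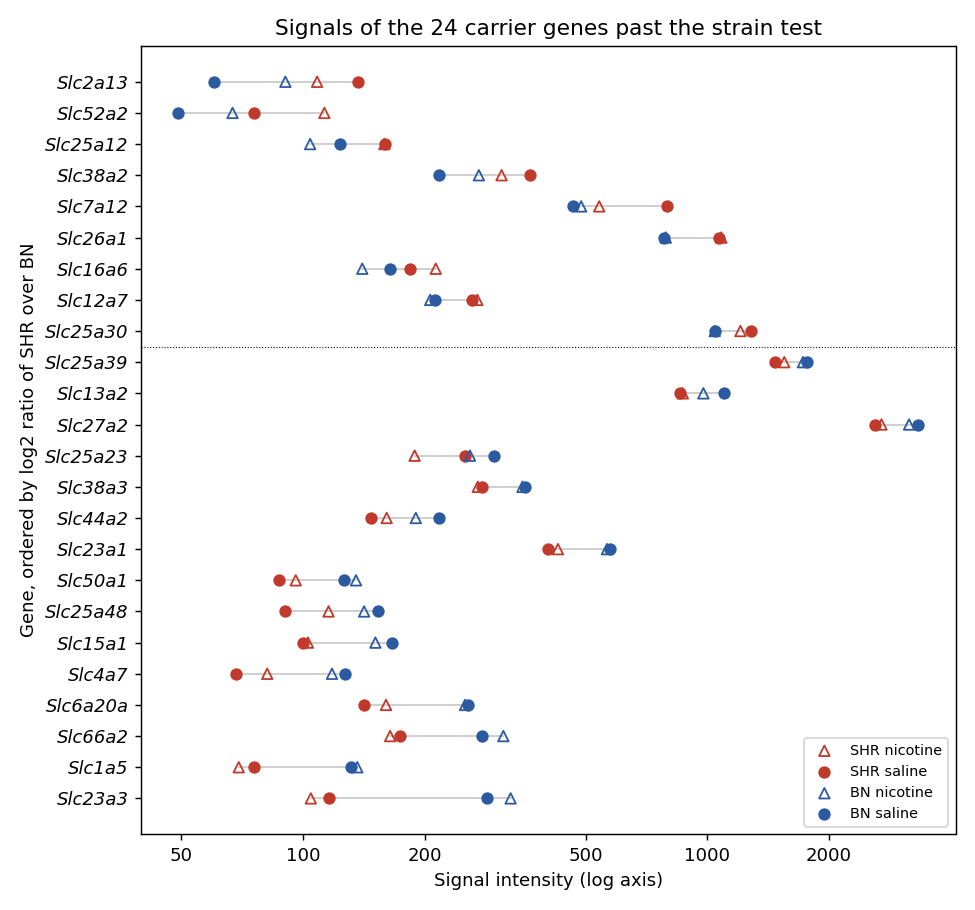
Signal intensity on a log axis for the 24 carrier genes past the strain test, 1 row a gene, with circles for saline and triangles for nicotine pools, SHR in red and BN in blue; grey lines join the lowest and highest pool. In all 24 rows both pools of one strain lie above both pools of the other, the 15 genes under the dotted line being lower in SHR and the 9 above it higher.

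In all 24 called genes the pools of the strains did not overlap, but this was also so for many genes that were not called. It held for 72 of the 111 tested members, or 64.9%, against 59.3% of all genes tested. Among the 111 tested members 9 had a mean over the pools at or above the limit in 1 strain alone, and 4 of those 9 were called (Slc1a5, Slc4a7, Slc52a2 and Slc2a13). Of the 102 above it in both, 20 were called. The filter itself picks genes with a strain difference into the group of 9, so these counts cannot be compared. The same shares over all genes are not given here. With 1 array left out and strain as the only factor, the number called was 13 without SHR nicotine, 10 without SHR saline, 10 without BN nicotine and 5 without BN saline, where all 4 arrays gave 19 in that model. The 5 called in each of these 4 fits were Slc23a3, Slc1a5, Slc66a2, Slc6a20a and Slc26a1. The call was lost in each of the 4 fits for Slc50a1, Slc44a2, Slc38a3, Slc13a2, Slc12a7, Slc16a6 and Slc25a12. After quantile normalisation or cyclic loess the split was 2 higher and 9 lower, against 9 and 15 as reported. Without the intensity trend it was 3 higher and 8 lower. Fewer genes thus passed in both directions under these settings.

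Carriers of organic anions and vitamins held the widest spread. Of 20 such genes 11 were tested and 5 were called, 3 lower and 2 higher in SHR. The counts of this and the other cargo groups below are to be read beside the 17.6% of all genes tested that passed. No group was tested as a set. Slc23a3, a kidney member of the ascorbate carrier family, read 104.5 under nicotine and 115.8 under saline in SHR, and 326.3 and 284.5 in BN. Both SHR pools lay far below both BN pools, and the level was 2.77-fold lower in SHR (log2 ratio -1.47, SE 0.12, limma adjusted p = 1.8e-08). Slc23a1, the sodium-coupled vitamin C carrier of the brush border, read 427.3 and 403.8 in SHR and 565.1 and 575.6 in BN, 1.37-fold lower in SHR (limma adjusted p = 0.000394). It kept its call in all fits without 1 array but that without BN saline. The third member of the family, the vitamin C carrier Slc23a2, had a log2 ratio of 0.24 and did not pass.

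Slc13a2, which takes citrate and other dicarboxylates up from the filtrate, read 870.6 and 854.5 in SHR against 978.8 and 1101.4 in BN, 1.2-fold lower. Related carriers did not pass: the log2 ratio was 0.16 (SE 0.06, limma adjusted p = 0.088) for the basolateral dicarboxylate carrier Slc13a3 and -0.11 (SE 0.08, limma adjusted p = 0.389) for the sulphate carrier Slc13a1. Riboflavin is carried by Slc52a2, which read 112.9 and 75.6 in SHR and 66.9 and 49.1 in BN. The SHR saline pool lay just above the BN nicotine pool, and the strain difference was 1.61-fold (limma adjusted p = 0.0205). Slc16a6, a monocarboxylate carrier, read 213.0 and 183.9 in SHR against 140.1 and 164.5 in BN, 1.3-fold higher, and was called in 1 of 13 alternative analyses. The other monocarboxylate family members, Slc16a7 for lactate and pyruvate and Slc16a12 for creatine, had log2 ratios of 0.13 and 0.02. A second probe set of Slc16a12 had -0.28, of the opposite sign, and did not pass when every probe set was tested on its own (limma adjusted p = 0.083).

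Among the families of amino acid carriers 5 of 17 tested genes were called, 3 lower and 2 higher in SHR, of 40 on the array; the 17 and the 40 include Slc7a6os. Slc1a5, an exchanger of glutamine and other neutral amino acids, read 69.3 and 75.6 in SHR and 136.2 and 131.7 in BN. SHR lay under the limit for a measured gene, and the ratio was 1.85-fold lower (log2 -0.89, SE 0.17, limma adjusted p = 0.000584). Slc6a20a, the proline and imino acid carrier of the brush border, read 160.4 and 141.9 in SHR and 251.7 and 256.4 in BN, 1.68-fold lower (log2 -0.75, SE 0.12, limma adjusted p = 6.72e-05). A second probe set for this gene read 133.5 and 130.5 against 226.2 and 229.7, a log2 ratio of -0.79. Both probe sets thus placed both SHR pools below both BN pools. Slc38a3, which supplies glutamine to the proximal tubule for ammonia production, read 270.6 and 277.6 in SHR against 349.2 and 354.1 in BN, 1.28-fold lower.

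Slc38a2, another carrier of small neutral amino acids, went the other way. It read 309.9 and 363.9 in SHR and 272.3 and 216.8 in BN, 1.38-fold higher in SHR (limma adjusted p = 0.00662). Slc7a12 read 540.6 and 797.2 in SHR and 487.7 and 465.3 in BN, also 1.38-fold higher. For Slc7a12 the SHR saline pool stood well above the other 3, and without it the log2 ratio was 0.18 and no longer past the test.

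The carriers behind cystinuria, in which cystine and dibasic amino acids are lost to the urine, did not pass the test. The heavy chain Slc3a1 read 6977.5 and 6986.1 in SHR and 6409.8 and 6601.8 in BN, a log2 ratio of 0.1 (SE 0.06, limma adjusted p = 0.27). Its light chain Slc7a9 read 996.9 and 918.5 against 1050.8 and 1162.5, a log2 ratio of -0.21 (SE 0.08, limma adjusted p = 0.0618). The basolateral pair Slc3a2 and Slc7a7 had log2 ratios of -0.04 and 0.11, and the light chain Slc7a8 had -0.01. Slc6a18, a brush border carrier of glycine and other neutral amino acids, read 846.5 and 929.2 in SHR and 895.0 and 888.3 in BN, with overlapping pools and a log2 ratio of -0.01. The glutamate carrier Slc1a1 read 600.3 and 618.4 against 640.4 and 671.0, a log2 ratio of -0.11 that did not pass. Its second probe set read 282.7 and 371.6 against 435.6 and 439.6, a log2 ratio of -0.43, and passed when every probe set was tested on its own (limma adjusted p = 0.00471). The GABA carrier Slc6a13 was at -0.26 and the taurine carrier Slc6a6 at 0.13, neither past the test on its brightest probe set.

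Of the 3 tested peptide carriers, Slc15a1 was called. This proton-coupled carrier of small peptides on the brush border read 102.8 and 100.2 in SHR and 151.0 and 166.0 in BN, 1.56-fold lower in SHR (log2 -0.64, SE 0.14, limma adjusted p = 0.00303). Slc15a2, the high-affinity peptide carrier of the later proximal tubule, read 623.2 and 540.0 against 588.9 and 614.8, so that its pools overlapped (log2 -0.05). Slc15a4, found in lysosomes, had a log2 ratio of 0.32 and did not pass.

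The mitochondrial family Slc25 was the largest, with 30 genes on the array and 23 tested. Of these 5 were called, 3 lower and 2 higher in SHR, with a median log2 ratio of 0.04, where 17.6% of all genes tested passed. Slc25a12, which exchanges aspartate for glutamate in the malate shuttle, read 158.9 and 159.4 in SHR and 104.1 and 123.4 in BN, 1.4-fold higher in SHR (limma adjusted p = 0.0183). Its close relative Slc25a13 had a log2 ratio of 0.09. Slc25a30, a carrier first described in kidney mitochondria, read 1208.7 and 1283.0 against 1044.0 and 1045.3, 1.19-fold higher. Slc25a48, linked to choline import, read 115.6 and 90.2 in SHR and 141.6 and 153.0 in BN, 1.44-fold lower. Slc25a23, a calcium-regulated exchanger of ATP and phosphate, read 188.8 and 251.2 against 258.8 and 296.0, 1.27-fold lower, with the SHR nicotine pool well below the other 3. Without that pool its log2 ratio was -0.14 and did not pass, and it was called in 3 of 13 alternative analyses. Slc25a39, needed for mitochondrial glutathione, read 1551.9 and 1473.8 against 1726.7 and 1769.2, 1.16-fold lower.

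Carriers at the centre of mitochondrial energy exchange had small ratios and did not pass. The ADP and ATP exchangers Slc25a4 and Slc25a5 had log2 ratios of 0.1 and 0.02 and the phosphate carrier Slc25a3 had 0.08. The dicarboxylate carrier Slc25a10 was at -0.22 (SE 0.08, limma adjusted p = 0.0611), the oxoglutarate carrier Slc25a11 at -0.07 and the ornithine carrier Slc25a15 of the urea cycle at 0.1. Pools of both strains overlapped for Slc25a5, whose SHR signals were 4582.6 and 4394.4 and whose BN signals were 4388.0 and 4480.6.

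**Figure D2:**
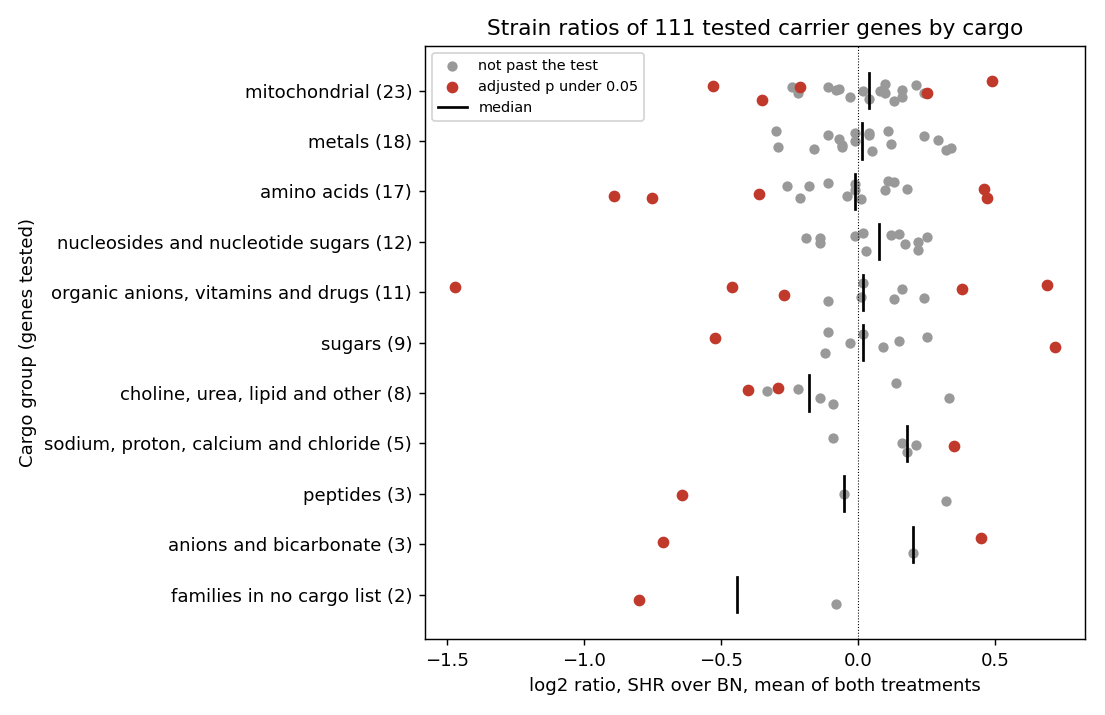
Log2 ratio of SHR over BN, mean of both treatments, for the 111 tested carrier genes in 11 cargo groups; red points have a limma adjusted p under 0.05 and black bars are group medians. The widest ratios, from -1.47 to 0.69, belong to carriers of organic anions, vitamins and drugs, while no metal or nucleotide sugar carrier is red.

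Metal carriers and carriers of nucleosides and nucleotide sugars had no called member, where 17.6% of all genes tested passed. Of 18 tested metal carriers limma called 0, with 2 at an unadjusted p under 0.05, and the log2 ratios ran from -0.3 for the zinc carrier Slc30a3 to 0.34 for Slc30a6. The iron exporter Slc40a1 read 173.9 and 184.2 in SHR and 216.9 and 220.1 in BN, a log2 ratio of -0.29 (SE 0.11, limma adjusted p = 0.0862), and a second probe set gave -0.31. Slc39a8, which takes up zinc and manganese, read 426.3 and 444.7 in SHR against 415.2 and 392.2 in BN, a log2 ratio of 0.11. The iron carrier Slc11a2 was at -0.07 on its brighter probe set and at 0.18 on the other, the zinc exporter Slc30a1 had 0.04 and the copper carrier Slc31a1 had -0.06. Of 12 tested carriers of nucleosides and nucleotide sugars limma called 0, with 1 at an unadjusted p under 0.05. Their log2 ratios ran from -0.19 for the nucleoside carrier Slc28a1 to 0.25 for the GDP-fucose carrier Slc35c1.

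In the anion and bicarbonate families both directions were seen. Slc26a1, the basolateral sulphate exchanger that also carries oxalate, read 1084.3 and 1071.9 in SHR and 789.9 and 784.1 in BN. The pools of a strain lay within a narrow range, and the level was 1.37-fold higher in SHR (log2 0.45, SE 0.07, limma adjusted p = 7.56e-05). The brush border sulphate carrier gene Slc13a1, described above, had a log2 ratio of -0.11 and of -0.28 on its second probe set. Slc4a7, a sodium and bicarbonate cotransporter, read 81.5 and 68.4 in SHR and 117.9 and 127.2 in BN, 1.64-fold lower (limma adjusted p = 0.00576). The chloride and bicarbonate exchanger Slc4a2 had a log2 ratio of 0.2 and did not pass.

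Slc12a7, a cotransporter of potassium and chloride, read 269.9 and 262.3 in SHR and 206.4 and 211.5 in BN, 1.27-fold higher in SHR (limma adjusted p = 0.0246). It was the only one called of 5 tested genes of sodium, proton, calcium and chloride transport. The sodium, potassium and chloride cotransporter Slc12a2 had -0.09 (SE 0.12) and the sodium and proton exchanger Slc9a8 had 0.21.

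The families grouped under sugars had 2 called of 9 tested; the 9 include Slc5a6, which carries biotin and pantothenate. Slc2a13, the proton-coupled carrier of myo-inositol, read 108.3 and 136.9 in SHR and 90.4 and 60.1 in BN, 1.65-fold higher (log2 0.72, SE 0.2, limma adjusted p = 0.0136). Within each strain its 2 pools lay well apart. Without BN saline the log2 ratio was 0.43 and did not pass, without BN nicotine it was 1.02, and the gene was called in 4 of 12 alternative analyses. Slc50a1, the animal member of the SWEET sugar carriers, read 95.9 and 87.2 against 135.2 and 126.5, 1.43-fold lower in SHR. Slc37a4, which brings glucose 6-phosphate into the endoplasmic reticulum for release of glucose, had a log2 ratio of 0.02.

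The group of choline, urea, lipid and other carriers supplied 2 lower genes among 8 tested. Slc27a2, a fatty acid carrier that also activates very long chain fatty acids, read 2700.5 and 2603.3 in SHR and 3160.4 and 3334.6 in BN, 1.22-fold lower (limma adjusted p = 0.00239). Slc44a2 of the choline carrier family read 161.0 and 147.2 against 190.1 and 217.2, 1.32-fold lower. It was called in 3 of 13 alternative analyses, Slc27a2 in 10. Slc27a1, also for fatty acids, had -0.33 and just missed the threshold (SE 0.11, limma adjusted p = 0.0547).

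Slc66a2, a membrane protein of the PQ-loop family in none of the cargo groups, read 164.2 and 173.3 in SHR and 313.1 and 276.7 in BN. Both SHR pools lay far below both BN pools, and the level was 1.74-fold lower in SHR (log2 -0.8, SE 0.11, limma adjusted p = 2.01e-05).

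How far the strain ratios belong to the gene and not to 1 probe set could be read in 15 genes with a second measured probe set, which gave 18 pairs. The direction was the same in 13 of the 18. Among the called genes 3 had such a pair, Slc6a20a, Slc16a6 (log2 0.38 and 0.43) and Slc25a48 (-0.53 and -0.24), all with the same direction. Tested on its own, the second probe set passed for Slc6a20a and Slc16a6 (limma adjusted p = 0.000134 and 0.0318) and not for Slc25a48 (0.338). In that setting the brighter one of Slc16a6 did not pass (0.0549). With the mean over probe sets Slc25a48 had a log2 ratio of -0.38 and did not pass (limma adjusted p = 0.13). For Slc6a6 the probe sets differed in size, 0.13 on the brighter and 0.88 on the other, which read 104.2 and 134.2 in SHR, against 61.6 and 67.2 for the BN pools. That second probe set passed when every probe set was tested on its own (limma adjusted p = 0.00167), and the gene was called with the mean over its probe sets (log2 0.5). For Slc29a3, the lysosomal nucleoside carrier, they differed in sign, 0.12 on the brighter and -0.33 on the other, which passed on its own (limma adjusted p = 0.0161). The remaining 21 called genes rest on 1 measured probe set.

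Genes that work with the carriers were read from 3 lists. Of all genes tested, 17.6% passed the strain test and 30.3% had an unadjusted limma p under 0.05. Of 8 tested partners and scaffolds 2 passed, both higher in SHR: Pdzk1, which anchors carriers at the brush border, by 1.22-fold and its partner Pdzk1ip1 by 1.25-fold. Collectrin (Cltrn), the chaperone of brush border amino acid carriers, had a log2 ratio of -0.02, and basigin (Bsg), that of monocarboxylate carriers, had -0.04. Of 9 tested brush border peptidases, which release the amino acids and peptides that carriers take up, 4 passed. Anpep (1.68-fold), Dpep1 (1.7-fold) and Enpep (1.27-fold) were higher in SHR and Xpnpep2 (1.32-fold) was lower. An unadjusted limma p under 0.05 was found for 8 of the 9 peptidases. Of 5 tested regulators of carrier genes limma called 0, with 2 at an unadjusted p under 0.05, and Hnf4a and Atf4 had log2 ratios of 0.01 and 0.11.

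Under prenatal nicotine no carrier gene passed the test. Averaged over the strains, limma called 0 of 110 tested members and 0% of all 5363 genes tested. At an unadjusted p under 0.05 there were 5 members, or 4.55%, against 5.31% of all genes. These 5 were Slc25a23 (log2 -0.3), Slc7a12 (-0.25), Slc11a2 (-0.23), Slc6a6 (-0.21) and Slc45a3 (0.27), with limma adjusted p from 0.656 to 0.911. The taurine carrier Slc6a6 read 410.7 under nicotine and 481.7 under saline in SHR, and 379.9 and 435.5 in the BN pools, with log2 ratios of -0.36 and -0.13 on its second probe set. Slc11a2, which carries iron and other divalent metals, read 318.0 against 358.4 and 320.9 against 391.9, while its second probe set had a log2 ratio of 0.04 in SHR, of the opposite sign, and one of -0.28 in BN. Over the 18 pairs of measured probe sets of a gene, the nicotine direction was the same in 10 in SHR and in 13 in BN.

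In SHR, 1 of 108 measured carriers, or 0.926%, was at least 1.5-fold apart between nicotine and saline, against 1.86% of all measured genes. This was Slc37a1, a glucose 6-phosphate and phosphate exchanger, at 148.0 under nicotine and 92.0 under saline, 1.61-fold higher. It was followed by the riboflavin carrier Slc52a2 (112.9 against 75.6, log2 0.58), Slc25a48 (115.6 against 90.2, log2 0.36), Slc12a9 (123.4 against 95.9) and the mitochondrial sodium and calcium exchanger Slc8b1 (117.4 against 94.7). The saline signal of Slc52a2 lay under the limit for a measured gene. A second probe set of Slc25a48 read 126.1 against 98.0, also a log2 ratio of 0.36. On the lower side stood Slc7a12 (540.6 against 797.2, log2 -0.56), the zinc carriers Slc39a13 (202.8 against 289.6, log2 -0.51) and Slc30a3 (103.9 against 143.4), Slc25a23 (188.8 against 251.2) and the glucose carrier Slc2a8 (90.2 against 117.3). With a single pool on each side these are sizes without a test. The median log2 ratio of the carriers was 0.0 with an SD of 0.2, against -0.01 and 0.21 for all measured genes.

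In BN, 2 of 112 measured carriers, or 1.79%, were at least 1.5-fold apart, against 1.43% of all measured genes. Slc2a13 read 90.4 under nicotine and 60.1 under saline, 1.5-fold higher. Slc12a9, a relative of the chloride cotransporters, read 77.4 against 118.6, 1.53-fold lower. A gene counted as measured in a strain where either of its pools reached the limit. Slc2a13 and Slc12a9 did so in BN only in the pool with the higher signal. The filter thus favours genes with a difference between the pools, and the lower signals of both genes lay under the limit. Next on the higher side were the zinc carriers Slc30a6 (89.8 against 60.6) and Slc30a4 (117.7 against 87.7), Slc45a3 (201.4 against 149.3) and Slc38a10 (224.2 against 169.0). On the lower side followed Slc25a42, which carries coenzyme A (139.4 against 192.7, log2 -0.47), Slc7a6os, the nucleoside carrier Slc28a1 (89.3 against 112.9) and Slc23a2 (95.4 against 118.4). Of these further genes, Slc30a6, Slc30a4 and Slc7a6os also reached the limit only in the BN pool with the higher signal. The median was -0.02 with an SD of 0.2, against 0.01 and 0.19 for all measured genes.

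**Figure D3:**
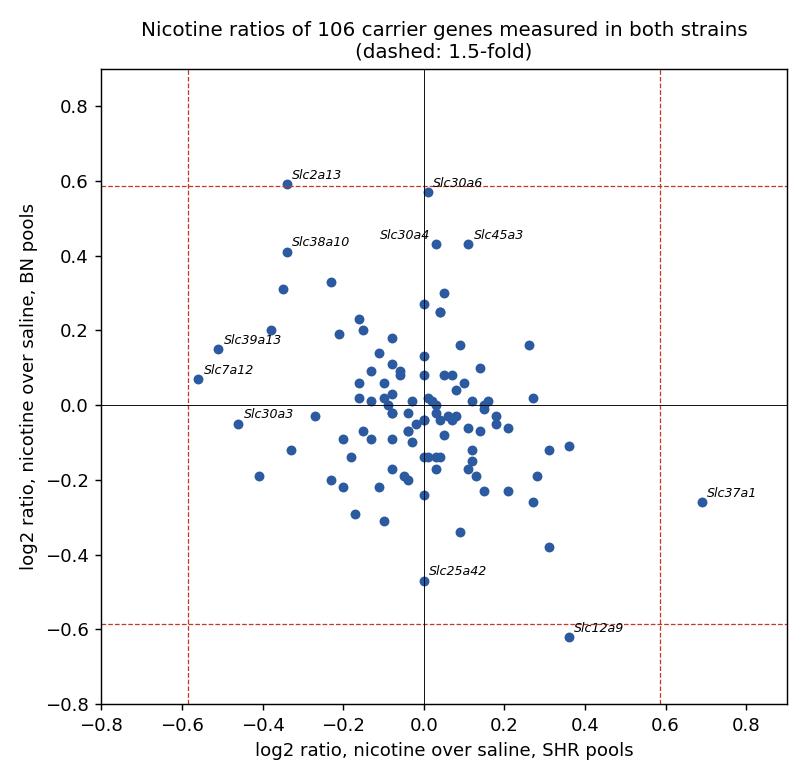
Log2 ratio of nicotine over saline in the BN pools against that in the SHR pools for the 106 carrier genes measured in both strains, 1 point a gene; dashed lines mark 1.5-fold. Slc37a1 lies past the line in SHR and Slc2a13 and Slc12a9 in BN, and no point lies past a line in both strains.

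Of the 106 carriers measured in both strains, 50 had the same direction of the nicotine ratio in both, or 47.2%, against 48.7% of all genes measured in both. By cargo, medians of the nicotine ratio stayed between -0.1 and 0.08 in SHR and between -0.08 and 0.13 in BN. Of the carriers with a steady strain difference, Slc23a3 stood at -0.15 for nicotine in SHR and at 0.2 in BN (log2), and Slc26a1 at 0.02 and 0.01. The strain ratios of the members had an SD of 0.36 under saline and 0.34 under nicotine, and their nicotine ratios one of 0.2 in either strain. Under saline 10.4% of the members were at least 1.5-fold apart between strains, against 7.39% of all genes, and under nicotine 7.89% against 7.6%.

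**Figure D4:**
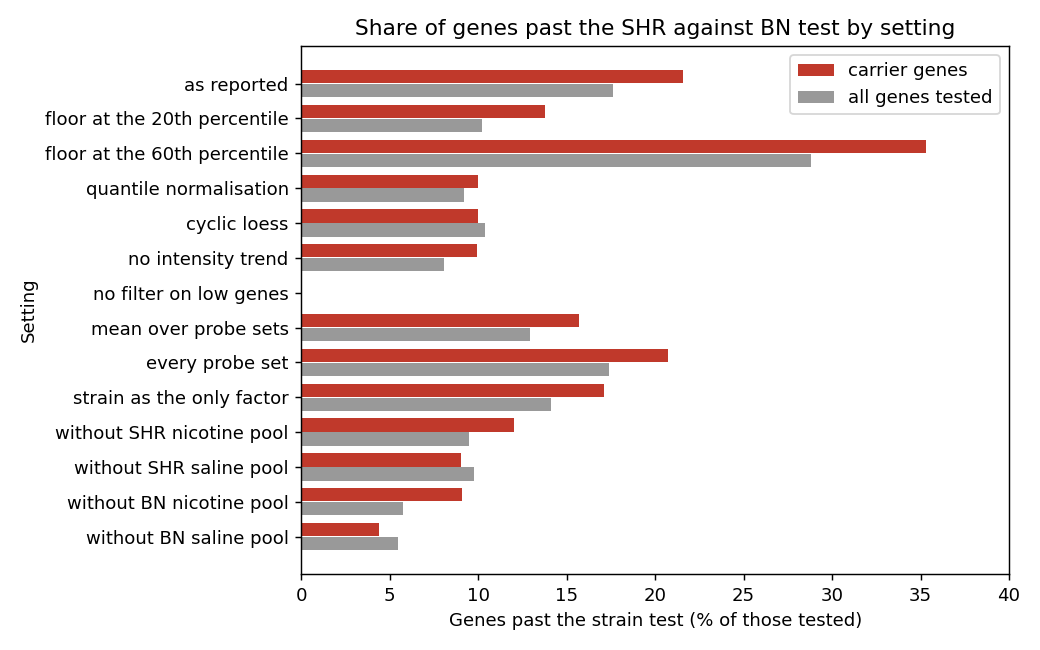
Percent of tested genes past the SHR against BN test for carrier genes (red) and all genes (grey) as reported and in 13 alternative analyses. Both shares run from 0 without a filter on low signals to 35.3% for carriers and 28.8% for all genes with the floor at the 60th percentile, and the carriers lie below all genes after cyclic loess, without the SHR saline pool and without the BN saline pool.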

How the data were processed

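The deposited values are MAS5 signal intensity on a linear scale, per the submitters' processing notes; its version is not given there. Without the 57 Affymetrix controls there were 15866 probe sets. A single gene symbol was given for 12783, and each gene was represented by its brightest probe set. All 193 members matched RefSeq by gene identifier. 2 Slc probe sets with several gene identifiers were not used.

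Strain and nicotine were fitted in an additive model over the 4 arrays (limma 3.58.1, R 4.3.3, eBayes with intensity trend) on log2 of the floored signals, for genes with a group mean at or above 89.0. The model leaves 1 residual degree of freedom, and eBayes added prior degrees of freedom, 19.33 in the strain fit and 13.35 in the nicotine fit. Alternatives changed floor, scaling, trend, filter, probe set rule, model and arrays.

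Members, lists and tests were chosen with earlier results of these data known. Named were up to 12 called members with the largest strain ratio in each direction (12 lower and 9 higher in SHR), the 5 with the largest nicotine ratio in each direction and strain, the extremes of each family and members with a textbook kidney role. Other members were named after their values were seen. The number of arrays limits the precision.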

Additional observations from a re-analysis of the deposited data

Results flagged for a closer look

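In 5 members measured in both strains the nicotine ratio had opposite signs in SHR and BN and was at least 1.2-fold in each, a size chosen after the values were seen. The share of all genes that met this rule is not given here, so the 5 cannot be set against it. Opposite signs alone were common, as the direction was the same in only 47.2% of the 106 members and 48.7% of all genes measured in both strains. With 1 pool a group the difference between strains was not tested. For Slc12a9, Slc2a13 and Slc7a6os the lower BN signal lay under the limit for a measured gene, as did the lower SHR signal of Slc7a6os. For Slc12a9 the log2 ratio was 0.36 in SHR and -0.62 in BN, a difference of 0.98. Slc2a13 had -0.34 in SHR and 0.59 in BN, a difference of -0.93, and its second probe set, under the limit for a measured gene, had 0.17 in SHR and no readable ratio in BN, where both its signals (41.2 and 40.2) lay below the floor. Slc38a10 had -0.34 in SHR and 0.41 in BN, a difference of -0.75. Slc45a4, a sugar carrier, had -0.35 and 0.31, a difference of -0.66, and Slc7a6os had 0.31 and -0.38, a difference of 0.69.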

How the results depend on the processing

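The 24 members called for strain became 11 after quantile normalisation, 11 after cyclic loess, 11 when the intensity trend was dropped and 0 when low genes were kept in, where limma called 0 of all 10411 genes and the smallest adjusted p was 0.274; without 1 array the count ran from 5 to 13. It lay between 17 and 24 in the other 5 alternatives. All 24 kept their direction in every alternative that could be run on them. For most alternatives this was fixed beforehand. The pools of the 24 did not overlap, so leaving out 1 array could not reverse a direction. Changes of trend, filter or model left the log2 ratio as it was. Of the 24, 5 were called in each alternative in which they were tested but the one without a filter (Slc1a5 was not tested with the floor at the 60th percentile). The members called for nicotine stayed at 0 in all 8 alternatives. Over all genes, limma called 6 of 8041 for nicotine with the floor at the 20th percentile, where 153 members were tested. With it at the 60th it called 27 of 2964, or 0.911%, where only 63 members were tested. Members at least 1.5-fold apart under nicotine in SHR were 9 with the floor at the 20th percentile, 0 with it at the 60th, 2 after quantile normalisation and 2 after cyclic loess, against 1 as reported. In BN they were 6, 0, 2 and 1, and 1 with means over probe sets, against 2 as reported. The cause was not tested. No paired analysis was possible because each group has 1 pool. Signals near background limit what could be read in the 79 members under 89.0.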
